A study of Homo sapiens and Mus musculus with 92 samples.

Results

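Glycophorins, the band 3 and ankyrin complex and the Rh complex form the red cell membrane with its skeleton. The genes followed here are GYPB, GYPC and GYPE (glycophorins), SLC4A1 (band 3), EPB42 (protein 4.2), ANK1 (ankyrin), RHAG (Rh-associated glycoprotein) and HEMGN (hemogen), found by their symbols in the deposited count tables. All 8 were found among the 28103 genes listed. The cells were HEL, an established line of human erythroleukemic cells without an MLL rearrangement, labelled as human erythroblasts, and all cells compared were HEL. In the MLL1 experiment there were 3 control and 3 MLL1 KD libraries, and in the AF9 experiment 2 control and 2 AF9 KD libraries, with separate controls. Their genotype is given as WT, and the methods name a non-targeting pLKO.1 construct for them. Each KD was made with a single lentiviral hairpin, MLL1 shRNA #1 or AF9 shRNA #1, so that an effect of the target and an effect of the hairpin cannot be told apart. No source ties the replicates to separate transductions, so p values measure the spread between these libraries, which may be technical.

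Glycophorins are sialic acid-rich proteins that carry blood group antigens and cover the red cell with negative charge. Band 3 exchanges chloride for bicarbonate and, through ankyrin and protein 4.2, ties the lipid bilayer to the spectrin network beneath it, and the Rh-associated glycoprotein brings the Rh proteins to the surface. These genes are switched on as erythroid precursors mature, largely by GATA1 and KLF1, whereas hemogen is a nuclear protein of hematopoietic and erythroid progenitors and not part of the membrane.

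The promoters of GYPB, GYPE, EPB42 and HEMGN are shown because GYPB and GYPE are near copies of each other and HEMGN had the largest fitted change of the 7 tested genes in either knockdown. RefSeq sequences (GRCh38.p14) were present for 6 of the 8 genes, with 8 start sites in all. Each line runs 5′ to 3′ on the strand of the gene and ends 30 bases before the start site. Capitals mark matches on either strand to AGATAA, letters bound by GATA factors, or to CCNCNCCC, letters bound by KLF factors. The windows are GYPB at chr4:144019376-144019595 (minus strand, the second start site), GYPE at chr4:143905590-143905809 (minus strand), EPB42 at chr15:43221049-43221268 (minus strand), and HEMGN at chr9:97944883-97945102 and chr9:97938203-97938422 (minus strand, the first and the second start site).
GYPB: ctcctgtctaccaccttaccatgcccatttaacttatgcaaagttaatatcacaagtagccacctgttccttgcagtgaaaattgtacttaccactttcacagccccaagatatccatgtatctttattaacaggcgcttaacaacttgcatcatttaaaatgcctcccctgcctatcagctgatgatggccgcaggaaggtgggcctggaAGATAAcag
GYPE: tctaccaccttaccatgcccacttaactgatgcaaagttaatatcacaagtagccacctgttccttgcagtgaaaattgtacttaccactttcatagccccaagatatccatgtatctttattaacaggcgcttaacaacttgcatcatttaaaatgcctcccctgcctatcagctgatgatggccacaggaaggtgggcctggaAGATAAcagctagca
EPB42: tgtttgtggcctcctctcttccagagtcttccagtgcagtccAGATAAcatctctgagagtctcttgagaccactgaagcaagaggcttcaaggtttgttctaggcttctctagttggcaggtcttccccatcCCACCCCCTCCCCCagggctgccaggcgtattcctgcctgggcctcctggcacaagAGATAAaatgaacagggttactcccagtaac
HEMGN, first start site: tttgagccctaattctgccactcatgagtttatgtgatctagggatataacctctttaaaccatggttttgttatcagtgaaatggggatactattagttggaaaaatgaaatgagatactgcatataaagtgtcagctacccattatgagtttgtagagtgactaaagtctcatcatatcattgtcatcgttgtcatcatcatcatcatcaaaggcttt
HEMGN, second start site: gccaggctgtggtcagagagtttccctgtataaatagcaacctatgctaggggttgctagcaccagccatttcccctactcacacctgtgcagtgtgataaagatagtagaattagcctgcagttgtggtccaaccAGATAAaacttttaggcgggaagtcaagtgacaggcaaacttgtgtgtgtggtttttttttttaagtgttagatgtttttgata

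The GYPB and GYPE windows are identical at 210 of 214 aligned bases (98.1%, aligned without gaps), and AGATAA lies in both, starting 39 bases before the second start site of GYPB and 45 bases before the start site of GYPE. EPB42 holds AGATAA at 61 and at 208 bases before its start and 3 overlapping matches to CCNCNCCC. HEMGN holds AGATAA 114 bases before its second start site, and neither set of letters is in the 250 bases before its first. Over the 250 bases before each start, AGATAA is in 4 of the 8 windows of these genes and in 9.17% of the 35116 promoters in the table. These windows are not independent, since those of GYPB overlap each other and the GYPB and GYPE matches lie in near copies. CCNCNCCC is in 3 of the 8 windows, those of GYPC, EPB42 and RHAG, and in 53.4% of all promoters. A match describes letters only and shows no binding.

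Because MLL1 has a domain that binds CpG, the CpG content of these promoters is also given, and most were poor in CpG. Their observed over expected CpG ranged from 0.0552 in EPB42 to 0.643 in GYPC, and 7 of the 8 windows were below 0.558, the median of all promoters in the table. GYPC was the exception. The windows of HEMGN had 0.232 at the first and 0.0916 at the second start site. All 8 windows were below the median GC content of 58%, with 37.2% to 54%. No occupancy data were analysed here.

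**Figure D1:**
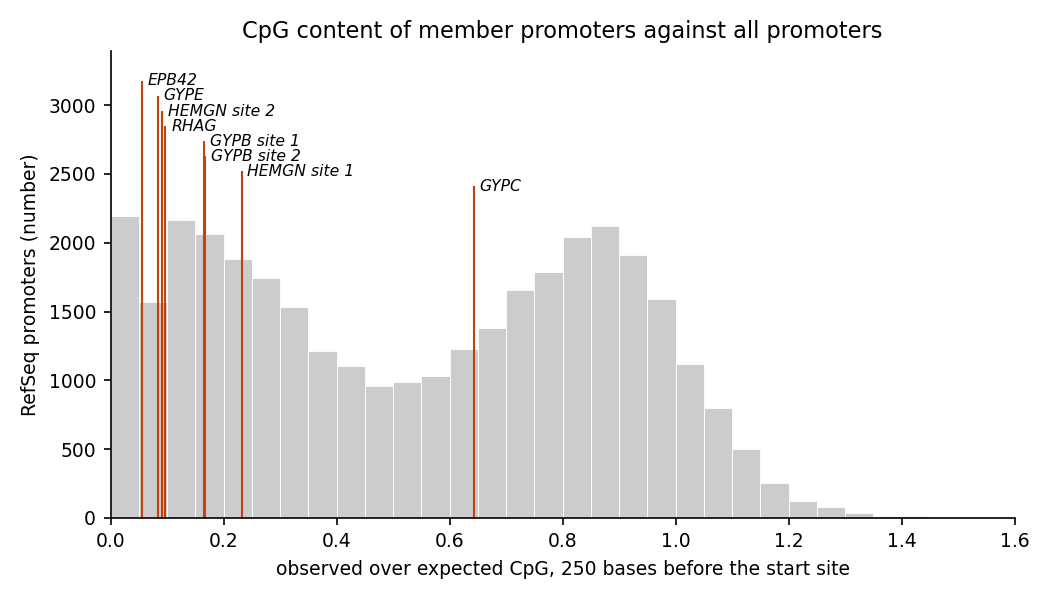
Observed over expected CpG in the 250 bases before each start site (x axis, no unit) against the number of RefSeq promoters (y axis), with grey bars for all 35116 promoters and red lines for the start sites of these genes, whose heights only separate the names. GYPC, at 0.643, stands alone to the right of the median of 0.558.

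Read counts per gene were deposited without normalization. Libraries of the MLL1 experiment held 6966345 to 10380241 counts and those of the AF9 experiment 12278989 to 14232408. Levels are in CPM, counts scaled to the library total with edgeR's TMM factors. KMT2A, the gene of MLL1, had 1256 to 1321 CPM in control and 814 to 833 CPM in MLL1 KD libraries (log2 fold change -0.66, adjusted p = 0.0723 in edgeR's quasi-likelihood test and 2.5e-07 with the replicate number as a block, a term that compares same-numbered libraries). MLLT3, the gene of AF9, had 528 and 548 CPM in control and 92.6 and 107 CPM in AF9 KD libraries (log2 fold change -2.43). All 14 erythroid markers listed for the check of the label, among them GATA1, KLF1 and the globins, exceeded 3 counts in a library of each experiment. Their summed level was 2738 to 3172 CPM in control and 2418 to 2881 CPM in MLL1 KD cells, and 12073 to 12123 CPM in control and 8479 to 10409 CPM in AF9 KD cells. The lower sum in AF9 KD cells was carried by HBG1 (65.8% of control), HBG2 (65.8%) and HBE1 (79.4%), while 8 of the 14 markers were above both controls in both AF9 KD libraries, among them GATA1 (121%), KLF1 (125%), ALAS2 (149.8%), HBA1 (221%) and HBA2 (232%). Groups did not overlap, in either direction, for 66.0% of all genes tested in the AF9 experiment. Of the 14 markers 2 were called higher and 2 lower in AF9 KD cells, against 13.1% of all genes, and 0 in MLL1 KD cells, against 0.0694%. In MLL1 KD libraries ALAS2 (29.7% of control), HBZ (36.6%), HBE1 (40.9%), HBG2 (61.2%) and GATA1 (84.6%) were still below every control library. NFE2 (117%) was above every control library, and the other markers overlapped. Groups did not overlap for 17.7% of all genes tested in the MLL1 experiment. The part of these shifts in the results below was not tested. Megakaryocyte markers were also present, with 9 and 7 of 10 above 3 counts in the MLL1 and AF9 experiment. Their sum was 2231 to 2449 CPM in control and 1850 to 2131 CPM in MLL1 KD cells, which do not overlap, and 1312 to 1445 CPM in control and 1283 to 1628 CPM in AF9 KD cells. In MLL1 KD cells ITGA2B (82.9% of control) was below every control library. PF4 (231%) and VWF (215%), low at 6.10 and 0.574 CPM in control, were above every control library. Of the 8 granulocyte and monocyte markers 3 exceeded 3 counts in either experiment, and ELANE and PRTN3 had no count in any library. The 8 summed to 22.7 to 26.5 CPM in control and 14.7 to 23.2 CPM in MLL1 KD cells, and 88.0 to 94.5 CPM in control and 66.8 to 75.9 CPM in AF9 KD cells. The lower sum in AF9 KD cells was carried by LYZ (mean 89.5 CPM in control and 68.2 CPM in KD). At low levels, ITGAM (266% of control) was above both controls and CSF1R (48.0%) below both. Of the 2 markers of this list tested there, 1 was called higher, ITGAM, and 0 lower, against 13.1% of all genes. The 6 lymphocyte markers summed to 10.7 to 14.9 CPM in control and 21.9 to 23.3 CPM in MLL1 KD cells, and to 6.89 to 7.27 CPM in control and 6.74 to 9.83 CPM in AF9 KD cells. The higher sum in MLL1 KD cells was carried by CD2 (mean 6.23 CPM in control and 17.5 CPM in KD), while CD79A was at 72.6% of control with overlapping groups. In bulk RNA, fewer cells that express a gene and less RNA per cell cannot be told apart.

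A gene was tested where its mean reached 1 TPM (CPM corrected for gene length) over the libraries of the experiment, and called where it passed both a 1.5-fold change and an adjusted p value under 0.05 (edgeR's quasi-likelihood test, Benjamini-Hochberg over all genes tested). Of the 8 genes 7 were tested in both experiments. In MLL1 KD cells 0 of the 7 were called, against 0.0694% of all 14409 genes tested, and 1 of them, HEMGN, had an unadjusted p value under 0.05. DESeq2 on the same genes called HEMGN alone, against 1.61% of all genes. With the replicate number as a block, which assumes that same-numbered libraries are pairs, HEMGN was again the single call, against 4.73% of all genes. In AF9 KD cells 1 of the 7 was called, again HEMGN, against 13.1% of all genes. The median log2 fold change of the 7 was 0.09 in MLL1 KD cells (0.01 over all genes) and -0.05 in AF9 KD cells (0.01 over all genes).

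**Figure D2:**
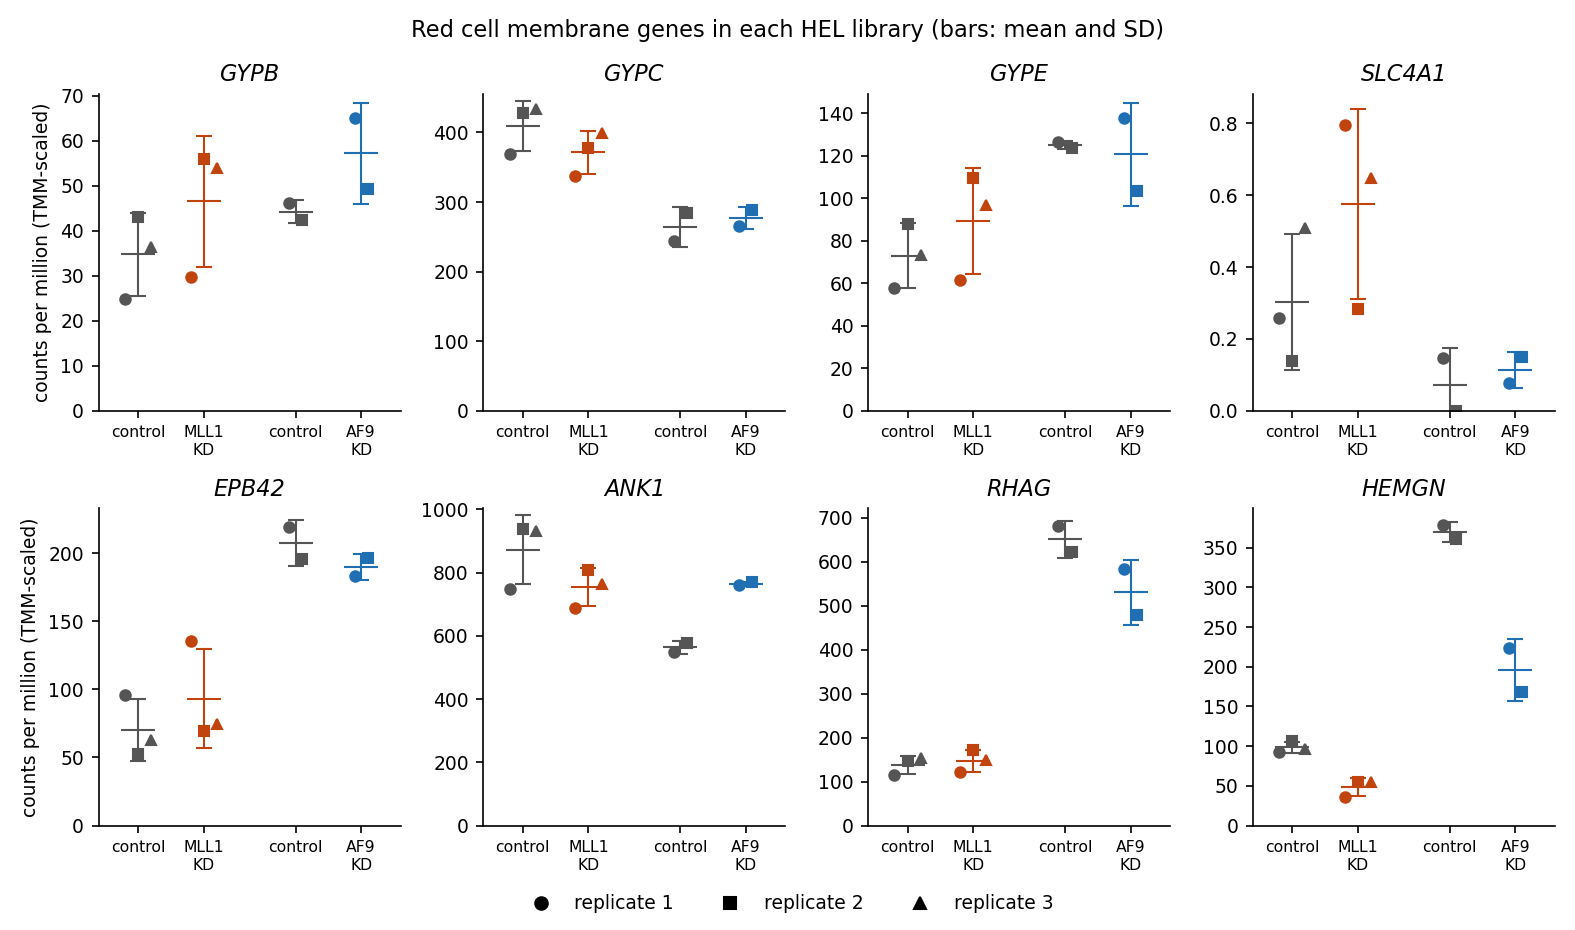
Level in CPM in each library (y axis, linear from 0) for the 8 genes, by group (x axis), with symbols for replicates and bars for the mean and SD (n = 3 in the MLL1 experiment, n = 2 in the AF9 experiment). HEMGN is lower in every KD library than in every control of its experiment, and SLC4A1 stays under 1 CPM throughout.

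Only HEMGN moved by 1.5-fold. In the MLL1 experiment it had 92.4, 106 and 96.6 CPM in the control libraries, and MLL1 KD replicates 1, 2 and 3 had 35.4, 54.7 and 55.0 CPM. Every MLL1 KD library lay below every control library, and replicate 1 of the KD cells was the lowest. The MLL1 KD mean of 48.4 ± 11.2 CPM (SD, n = 3) was 49.2% of the control mean of 98.4 ± 6.99 CPM (SD, n = 3). The log2 fold change was -1.03 (standard error 0.19, 95% interval -1.47 to -0.58, adjusted p = 0.147 in edgeR's quasi-likelihood test), which did not pass the threshold over all genes. With the replicate block it was -1.05 (standard error 0.11, adjusted p = 3.4e-06 in the same test), and with DESeq2 -1.02 (adjusted p = 9.4e-04). Over 19 alternative settings HEMGN was below control in each, was called in 9, and its adjusted p ranged from 7.2e-20 to 0.577. Leaving out replicate 1 of MLL1 KD cells, with no block, also gave a call (log2 fold change -0.84, adjusted p = 0.0435 in edgeR's quasi-likelihood test), while leaving out any other library did not.

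In the AF9 experiment HEMGN had 379 and 361 CPM in the control libraries, and AF9 KD replicates 1 and 2 had 224 and 169 CPM. The groups did not overlap. The AF9 KD mean of 197 ± 39.1 CPM (SD, n = 2) was 53.1% of the control mean of 369.9 ± 12.3 CPM (SD, n = 2). The log2 fold change was -0.91 (standard error 0.12, 95% interval -1.17 to -0.65, adjusted p = 1.9e-04 in edgeR's quasi-likelihood test), and HEMGN was called under all 13 alternative settings, with log2 fold changes between -1.13 and -0.72. HEMGN (ENSG00000136929, hg38, chromosome 9, 97926791 to 97944856, minus strand) shares 0.633% of the 31-base stretches of its transcript with other genes of GENCODE.

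The test did not separate the HEMGN effects of the knockdowns. The MLL1 KD effect minus the AF9 KD effect was -0.10 on the log2 scale (95% interval -0.71 to 0.52, adjusted p = 0.908 in edgeR's quasi-likelihood test of the interaction). The interval includes differences over 1.5-fold towards a larger fall in MLL1 KD cells, and only smaller ones the other way. The 2 experiments share no control library.

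**Figure D3:**
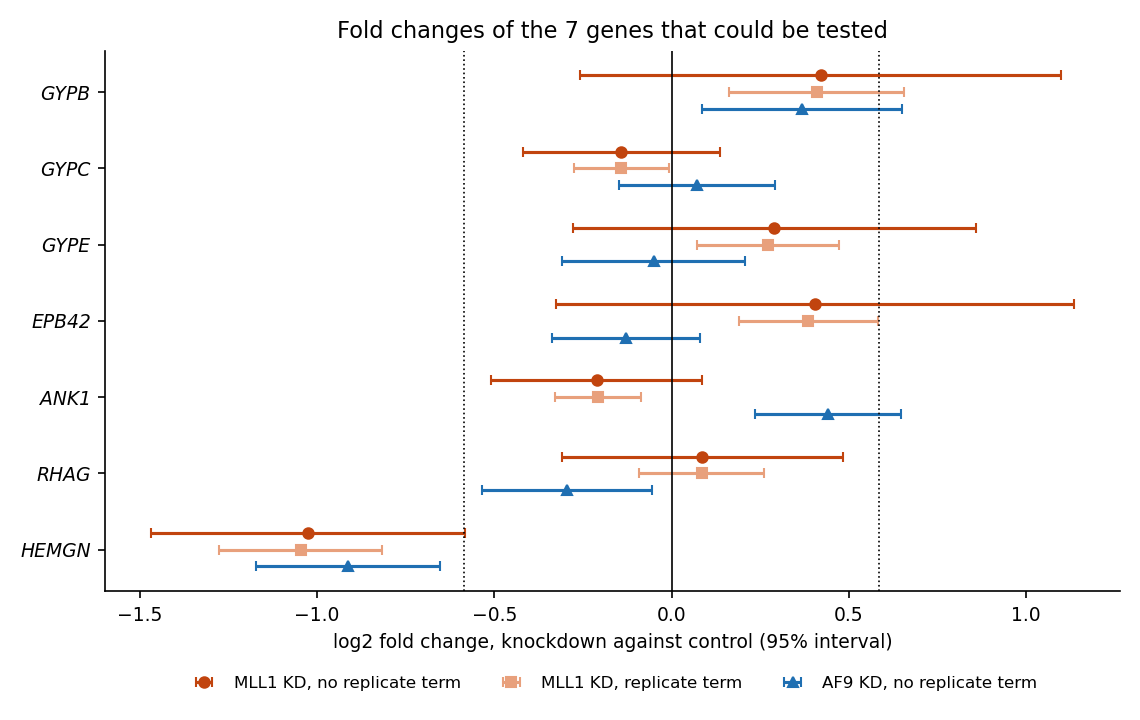
Log2 fold change of each tested gene (x axis, with its 95% interval), for MLL1 KD without and with the replicate number as a term and for AF9 KD, with dotted lines at 1.5-fold. HEMGN lies left of the line in all 3 fits, and the points of the other 6 genes lie between the lines.

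Among the glycophorins GYPB was higher in both knockdowns by the fitted value and was called in neither. It encodes glycophorin B, the carrier of the S and s antigens. It had 24.8, 43.1 and 36.3 CPM in control and 29.8, 55.9 and 54.0 CPM in MLL1 KD replicates 1, 2 and 3. These groups overlapped, replicate 1 was the lowest in both, and each KD library was above the control of its number, by 0.26 to 0.57 on the log2 scale. In the AF9 experiment it had 46.1 and 42.4 CPM in control and 65.0 and 49.3 CPM in AF9 KD cells, which did not overlap. The log2 fold changes were 0.42 in MLL1 KD cells (95% interval -0.26 to 1.10, adjusted p = 0.72) and 0.37 in AF9 KD cells (95% interval 0.08 to 0.65, adjusted p = 0.0502), both from edgeR's quasi-likelihood test. Single libraries set much of their size, which was 0.23 (without control replicate 1) to 0.67 (without MLL1 KD replicate 1) in MLL1 KD cells and 0.16 (without AF9 KD replicate 1) to 0.56 (without AF9 KD replicate 2) in AF9 KD cells. With offsets for GC content the AF9 KD value was 0.55 (adjusted p = 0.0026 in edgeR's quasi-likelihood test), still under 1.5-fold. GYPB (ENSG00000250361, chromosome 4, 143996104 to 144019380, minus strand) shares 43.3% of its 31-base stretches with other genes, so that its counts are uncertain.

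GYPE encodes a glycophorin-like protein whose place on the red cell is poorly known. Its levels were 57.6, 88.0 and 73.2 CPM in control and 61.3, 109 and 96.9 CPM in MLL1 KD replicates 1, 2 and 3, and 126 and 124 CPM in control and 138 and 104 CPM in AF9 KD replicates 1 and 2. The groups overlapped in both experiments, and the AF9 KD libraries lay on either side of their controls. The log2 fold changes were 0.29 (95% interval -0.28 to 0.86) and -0.05 (95% interval -0.31 to 0.21), with adjusted p values of 0.784 and 0.787 in edgeR's quasi-likelihood test. GYPE (ENSG00000197465, chromosome 4, 143870864 to 143905563, minus strand) shares 4.22% of its 31-base stretches with other genes.

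GYPC, glycophorin C, belongs to another gene family and anchors protein 4.1 of the skeleton. It had 368, 428 and 433 CPM in control and 337, 378 and 399 CPM in MLL1 KD cells, and 244 and 284 CPM in control and 266 and 288 CPM in AF9 KD cells, so that the groups overlapped in both. Its log2 fold changes were -0.14 (95% interval -0.42 to 0.14) and 0.07 (95% interval -0.15 to 0.29), and both intervals stay within a 1.5-fold change. GYPC (ENSG00000136732, chromosome 2, 126656133 to 126696667, plus strand) shares no 31-base stretch with another gene.

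Band 3 was nearly absent. SLC4A1 had 2, 1 and 4 counts in control and 8, 2 and 6 counts in MLL1 KD libraries, and 2 and 0 counts in control and 1 and 2 counts in AF9 KD libraries. The levels did not pass the filter in either experiment, and no fold change is given. A difference in band 3 could not be detected at this depth. The gene is ENSG00000004939 (chromosome 17, 44248390 to 44268141, minus strand).

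EPB42, whose protein joins band 3 to ankyrin, was expressed although band 3 was nearly absent. It had 96.0, 52.4 and 62.8 CPM in control and 135, 69.5 and 74.7 CPM in MLL1 KD replicates 1, 2 and 3, so that replicate 1 was the highest in both groups, the reverse of the glycophorins. Each MLL1 KD library was above the control of its number, while the groups overlapped, and the fitted change was 0.04 without MLL1 KD replicate 1 and 0.69 without control replicate 1. In the AF9 experiment it had 219 and 196 CPM in control and 183 and 197 CPM in AF9 KD cells. The log2 fold changes were 0.40 (95% interval -0.33 to 1.13, adjusted p = 0.759) and -0.13 (95% interval -0.34 to 0.08, adjusted p = 0.347) in edgeR's quasi-likelihood test, and neither was called. EPB42 (ENSG00000166947, chromosome 15, 43197227 to 43221018, minus strand) shares 18% of its 31-base stretches with ENSG00000285117.

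ANK1, the ankyrin that holds band 3 to spectrin, had fitted changes of opposite sign in the knockdowns. It had 747, 938 and 933 CPM in control and 689.9, 809 and 763 CPM in MLL1 KD replicates 1, 2 and 3, and 549.7 and 579 CPM in control and 761 and 770.2 CPM in AF9 KD replicates 1 and 2. The MLL1 KD libraries were each below the control of their number and overlapped the control group, whereas both AF9 KD libraries lay above both controls. The log2 fold change in MLL1 KD cells was -0.21 (95% interval -0.51 to 0.09, adjusted p = 0.665), and in AF9 KD cells it was 0.44 (95% interval 0.23 to 0.65, adjusted p = 0.0041), which is 136% of control and under the 1.5-fold required for a call. With offsets for GC content, which is 58% in the exons of ANK1, the AF9 KD value was 0.16 (adjusted p = 0.183 in edgeR's quasi-likelihood test). The difference between the effects was -0.63 (95% interval -1.03 to -0.24, adjusted p = 0.116 in the same test), which was not called. It was called with the replicate block (-0.63, adjusted p = 2.3e-04) and with DESeq2 (-0.63, adjusted p = 0.0370). With GC content offsets and no block the difference was -0.33. The gene is ENSG00000029534 (chromosome 8, 41653220 to 41896741, minus strand).

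RHAG, which carries the Rh proteins to the surface, had 115, 146 and 154 CPM in control and 122, 171 and 148 CPM in MLL1 KD cells. In the AF9 experiment it had 681 and 622 CPM in control and 583 and 479 CPM in AF9 KD cells, both KD libraries below both controls. The log2 fold changes were 0.09 (95% interval -0.31 to 0.48, adjusted p = 0.931) and -0.30 (95% interval -0.53 to -0.06, adjusted p = 0.0616) in edgeR's quasi-likelihood test, and RHAG was called in neither. The AF9 KD value was -0.44 without AF9 KD replicate 1 and -0.16 without AF9 KD replicate 2. With GC content offsets it was -0.17 (adjusted p = 0.199 in edgeR's quasi-likelihood test). RHAG (ENSG00000112077, chromosome 6, 49605175 to 49636839, minus strand) shares no such stretch with another gene.

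Small shifts were common in all genes. In the AF9 experiment 4 of the 7 tested genes had groups that did not overlap (GYPB, ANK1, RHAG and HEMGN), as did 66.0% of all genes tested there. In the MLL1 experiment 1 of the 7 did not overlap, HEMGN, against 17.7% of all genes. An adjusted p value under 0.05 without a fold change threshold was met by 2 of the 7 in AF9 KD cells (28.9% of all genes) and, with the replicate block, by 4 of the 7 in MLL1 KD cells (13.6% of all genes). In the test of the difference between the effects 0 of the 7 were called, against 1.36% of all 12751 genes tested in both experiments, and 1 of the 7 reached an unadjusted p under 0.05. Adding the replicate block called ANK1 alone, against 15.3% of all genes.

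The order of levels differed between the experiments. Length here is that of all merged exons of a gene. It was 1907 bases for GYPB and 3609 for GYPC, against 564 and 1018 in a single reference transcript (Ensembl canonical). For HEMGN the lengths were 2192 and 2084 bases. The ranks of GYPB and GYPC depend on this choice, and the order was not computed with the single transcripts. Per length, GYPC led in control cells of the MLL1 experiment with 435 ± 26.6 TPM (SD, n = 3), before ANK1 with 304 ± 29.7 TPM, RHAG with 202 ± 25.1 TPM, HEMGN with 172 ± 7.93 TPM, GYPE with 139 ± 25.2 TPM, EPB42 with 92.8 ± 33.1 TPM and GYPB with 69.6 ± 16.7 TPM. Between neighbours in that order, the libraries overlapped for RHAG and HEMGN, for GYPE and EPB42 and for EPB42 and GYPB. SLC4A1 came last with 0.227 ± 0.140 TPM. In MLL1 KD cells HEMGN stood behind GYPB, at 85.1 ± 17.8 TPM (SD, n = 3), with libraries that overlapped those of GYPB.

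In control cells of the AF9 experiment RHAG led with 1049 ± 77.0 TPM (SD, n = 2), before HEMGN with 715 ± 30.4 TPM, GYPC with 309 ± 30.7 TPM, EPB42 with 299.7 ± 26.7 TPM, GYPE with 264 ± 6.41 TPM, ANK1 with 217 ± 5.92 TPM and GYPB with 98.3 ± 6.65 TPM. Only GYPC and EPB42 overlapped as neighbours, and SLC4A1 was last with 0.0604 ± 0.0855 TPM. In AF9 KD cells ANK1 stood at 318 ± 7.25 TPM, before EPB42 and GYPE.

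Control HEL cells were not alike in the 2 experiments. With all 10 libraries scaled together, RHAG was 4.94 times, HEMGN 3.94 times, EPB42 3.09 times, GYPE 1.80 times and GYPB 1.34 times as high in the controls of the AF9 experiment as in those of the MLL1 experiment, whereas GYPC was 1.48 times and ANK1 1.47 times as high in the MLL1 experiment. For each of these genes the 3 and 2 control libraries did not overlap. The share of all genes with such a separation was not computed, so it is not shown to be particular to these genes. Over the 12678 genes with counts in both sets of controls the median ratio was 0.997, and 18.3% of them were at least 2 times as high in the AF9 experiment. No test is given, since the experiment and the state of the cells cannot be told apart.

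**Figure D4:**
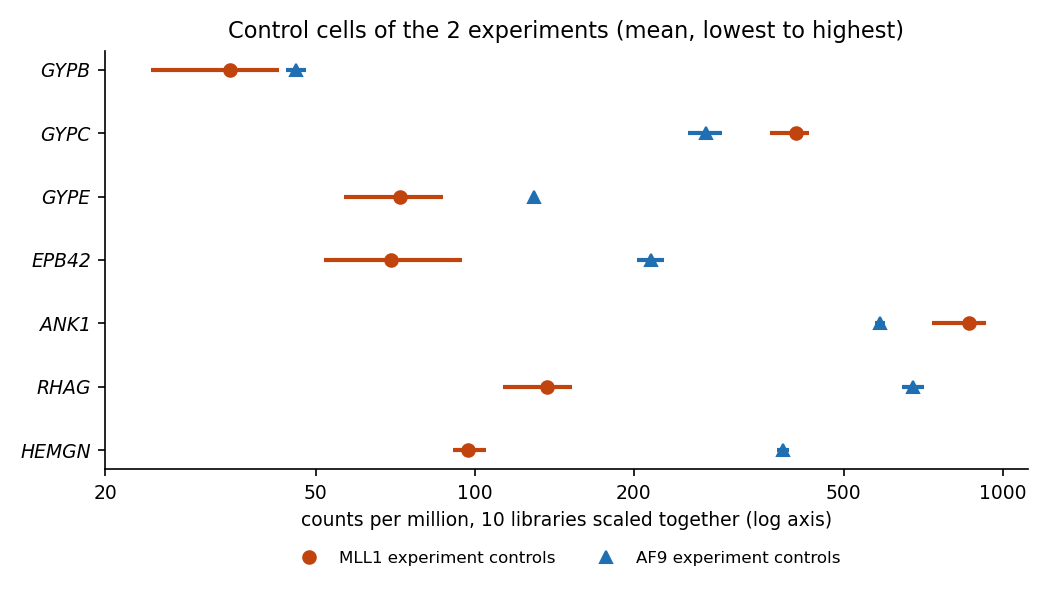
Level in CPM in control cells with all 10 libraries scaled together (x axis, log scale), with the mean as a point and a line from the lowest to the highest library (n = 3 in the MLL1 experiment, n = 2 in the AF9 experiment). RHAG, HEMGN and EPB42 lie farthest apart, at 4.94, 3.94 and 3.09 times.

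The spread among MLL1 experiment replicates also ran through these genes. In both groups replicate 1 was below replicates 2 and 3 for GYPB, GYPC, GYPE, ANK1, RHAG and HEMGN, and above them for EPB42. GYPB in replicate 1 was 0.624 times the mean of replicates 2 and 3 in control and 0.542 times in MLL1 KD cells, and EPB42 was 1.67 and 1.87 times. Over the 10 libraries, with each table centred on its own mean, GYPB and GYPE had a Pearson's r of 0.91, GYPE and RHAG of 0.81, and GYPC and EPB42 of -0.83. These values describe libraries that share the replicate 1 contrast, and GYPB and GYPE also share sequence.

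By the same measure, among the 12751 genes tested in both experiments, the genes outside the list most like HEMGN were CPD (r of 0.993), MAP1A (0.991) and KIFAP3 (0.986), and those most like ANK1 were CCDC92, ANXA11 and PLEKHA4 (0.960 to 0.982). The nearest to GYPB were ENDOD1, SBF2 and LINC01215 (0.966 to 0.981), to GYPE RALA, GTF2F2 and ZFYVE16 (0.971 to 0.975), and to GYPC RNF19B and LOC100129083 (0.952 to 0.962). EPB42 was followed by DHX8, LINC00641 and LAP3 (0.962 to 0.973), and RHAG by BTBD1, NMD3 and MZT1 (0.9696 to 0.974). These are the highest of many values over 10 libraries and carry no test.

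Other genes of the red cell membrane were taken from a list of 42, with 12 of the skeleton and 30 integral membrane proteins, blood group carriers and transporters. In MLL1 KD cells 38 were tested and edgeR's quasi-likelihood test called 0, against 0.0694% of all genes. An unadjusted p under 0.05 was reached by 7 of the 38 and by 1437 of all 14409 genes, and DESeq2 called 1, SPTB, against 1.61% of all genes. With the replicate block 3 were called, SPTB lower and CD44 and CD59 higher, against 4.73% of all genes. The median log2 fold change of the list was -0.07 in MLL1 KD cells. Of 39 tested in AF9 KD cells 12 were called, 7 higher and 5 lower, against 13.1% of all genes, and the list's median log2 fold change was -0.02. This balance moved with the scaling, and with total counts 7 were called higher and 2 lower, CD55, CD44 and ART4 losing the call.

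SPTB encodes the beta chain of erythroid spectrin, the partner of ankyrin in the skeleton. It had 140.5, 160.0 and 166 CPM in control and 67.7, 88.9 and 90.9 CPM in MLL1 KD replicates 1, 2 and 3, and 115 and 136 CPM in control and 214 and 205 CPM in AF9 KD replicates 1 and 2. The groups did not overlap in either experiment, and the directions were opposite. The log2 fold changes were -0.91 in MLL1 KD cells (adjusted p = 0.123, and -0.92 with 1.2e-06 with the replicate block) and 0.74 in AF9 KD cells (adjusted p = 2.4e-04), and the difference between the effects was -1.63 (standard error 0.22, adjusted p = 0.0151), all from edgeR's quasi-likelihood test. With GC content offsets the AF9 KD value was 0.51, under 1.5-fold. The call of the difference was lost without control replicate 2 or 3 of the MLL1 experiment or without any library of the AF9 experiment (lowest and highest value over the alternatives -1.76 and -1.38). ANK1, which binds this chain, had -0.21 and 0.44, and was called in neither.

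The other skeleton gene called was ADD3, gamma adducin, which fell in AF9 KD cells by 0.94 on the log2 scale and had a log2 fold change of 0.28 in MLL1 KD cells. CD44, the Indian blood group carrier, had 137, 89.1 and 80.2 CPM in control and 236, 148 and 161 CPM in MLL1 KD cells, and 97.4 and 93.4 CPM in control and 58.2 and 62.8 CPM in AF9 KD cells. It did not overlap in either experiment. Its log2 fold changes were 0.83 (adjusted p = 0.303, and 2.4e-06 with the replicate block) and -0.66 (adjusted p = 3.9e-04) in edgeR's quasi-likelihood test. The difference of 1.51 had an adjusted p of 0.0656 and passed with the block (1.5e-06).

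The water channel AQP3 (log2 fold change 1.31), the Duffy carrier ACKR1 (1.24), the transporter ABCG2 (1.22), the mechanosensitive channel PIEZO1 (0.84), basigin (BSG, 0.83) and the Kell glycoprotein (KEL, 0.60) also rose in AF9 KD cells. The calcium pump ATP2B4 (-0.76), the complement regulator CD55 (-0.65) and the Dombrock carrier ART4 (-0.64) fell in the same cells. Adjusted p values of these 9 genes were 2.0e-04 to 0.0448 in edgeR's quasi-likelihood test. ABCG2 and AQP3 were low, at 1.33 and 3.58 CPM in control cells, and ABCG2 was not called without control replicate 2 or AF9 KD replicate 1. KEL was not called without control replicate 2, nor ART4 without control replicate 1 or AF9 KD replicate 2. With GC content offsets 7 of the list were called in place of 12, 3 higher and 4 lower, while calls over all genes went from 1744 to 1068. SPTB, PIEZO1, BSG, KEL, CD44, CD55 and ART4 were no longer called, and the glucose transporter SLC2A1 (-0.60) and dematin (DMTN, -0.61), an actin-bundling protein, were added as lower (both named after their values were seen). Without the offsets DMTN was at -0.04 (adjusted p = 0.798 in edgeR's quasi-likelihood test) with overlapping groups, so its fall appeared only with them. SLC2A1 was at -0.50 without them (adjusted p = 0.0017 in the same test), under 1.5-fold. ATP2B4 was the other gene of the list besides SPTB for which the difference between the effects was called without the block (0.89, adjusted p = 0.0306), and it too lost that call without any 1 of 8 libraries, all but replicate 1 of both groups of the MLL1 experiment. In MLL1 KD cells BSG (log2 fold change 0.55), ACKR1 (0.27) and ATP2B4 (0.11) were above every control library and KEL (-0.21) below, while the others of these 9 genes overlapped. The difference between the effects on BSG was not called (-0.26, adjusted p = 0.584 in edgeR's quasi-likelihood test). CD59, an inhibitor of complement, was called in MLL1 KD cells with the replicate block (log2 fold change 0.62), and was no longer called with replicate 2 or 3 left out of that fit.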

How the data were processed

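RNA-seq read counts of HEL cells from 10 of the 92 samples of the series were analysed, and the other assays were not used here. Per the submitters' processing notes the authors used fastp 0.13.1, HISAT2 2.1.0 and featureCounts 1.6.1 with hg38. The methods describe strand-specific libraries. The deposited values are raw counts per gene symbol, whole numbers without normalization, in a table for each experiment.

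Symbols were matched to GENCODE 44 for merged exon length and GC content (92.3% of 28103 matched). Tests used R 4.3.3 with edgeR 4.0.16 (TMM, glmQLFit and glmQLFTest, two-sided) per experiment, and an interaction term over all 10 libraries for the difference between effects. DESeq2 1.42.0 was an alternative. Genes needed a mean of at least 1 TPM (1 CPM without a length), which 14409, 13351 and 12751 genes met in the MLL1 experiment, the AF9 experiment and both. Log2 CPM used a prior count of 2. GC content offsets took each library's trend (span 0.3). Scripts were tested on simulated counts. Python 3.11.15, pandas 2.3.3, numpy 2.4.6 and matplotlib 3.10.9 were also used. Promoter sequences are from RefSeq.

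Same-numbered libraries of the MLL1 experiment had correlated deviations from their group means (r of 0.647, 0.326 and 0.351). The numbers were therefore taken to pair them. Replicate 1 stood apart in both groups, which alone makes replicates 2 and 3 deviate the same way. Correlations between libraries of different number were not computed, so matching of replicates 2 and 3 by number is not shown. The pairing is assumed, is not stated in the labels, and p values with the block rest on it. Genes were named by a rule: the 8 genes, the 2 targeted genes, listed membrane genes called in either experiment with or without the block, and for each tested gene the 3 with the highest r. The genes and lists were chosen with earlier results of these data known. Marker genes are named beside results they bear on, and some genes that the rule or the lists take in are not reported here. The alternatives were other scaling, filters, DESeq2, the block, GC content offsets, no fold change threshold and each library left out. The block with a replicate left out was chosen after seeing the data.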

Additional observations from a re-analysis of the deposited data

How the results depend on the processing

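For the tested genes 294 alternative values kept their direction and their side of the threshold, 17 reversed and 11 newly passed it. HEMGN was called in MLL1 KD cells under 9 alternatives with the same direction, and ANK1 in the difference under 2. In MLL1 KD cells 0 genes were called, and 1 was called with DESeq2 (both orders of filtering), with the replicate block, with the block and GC content offsets, with replicates 2 and 3 alone, and with the block and replicate 1, 2 or 3 left out. With 1 library left out it was 0 to 1. In AF9 KD cells 1 was called, 2 without a fold change threshold, and 1 with the block. In the difference between effects 0 were called, against 1 with DESeq2 and 1 with the block. For the membrane list in MLL1 KD cells, 0 became 1 with either DESeq2 order, 3 with the block, 3 with the block and GC content offsets, 3 with replicates 2 and 3 alone, and 3, 4 and 2 with the block and replicate 1, 2 or 3 left out. In AF9 KD cells 12 became 7 with GC content offsets, with or without the block, and 21 without a fold change threshold.

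Reversals were small. RHAG in MLL1 KD cells ranged from -0.0344 to 0.21 with 1 library left out. In AF9 KD cells GYPC was -0.0624 with GC content offsets, -0.0609 with these and the block, and -0.0358 to 0.19 with 1 library left out. GYPE was 0.0373 with total counts, 0.0898 with GC content offsets, 0.0828 with these and the block, and -0.27 to 0.14 with 1 library left out. In the difference between effects GYPB was -0.0366 with total counts, -0.15 with GC content offsets and -0.13 to 0.31 with 1 library left out, and HEMGN was -0.30 to 0.12. The cause was not tested. With 2 libraries in a group, leaving out 1 assumes that the lone library varies like the others. The AF9 replicate numbers were not taken as pairs (r of 0.157), and the block moved the calls over all genes there from 1744 to 1960.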
